A study of Mus musculus with 21 samples.

Results

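The Zfp zinc finger genes were followed in RAW 264.7 cells, an established line of mouse macrophages grown from a tumour, exposed to amorphous silica for 2 h. Members were the genes whose symbol is Zfp followed by digits alone, leaving out Zfp36, which encodes an RNA-binding protein of another family. Only probe sets with exactly 1 symbol in the platform annotation were used, and a gene with several probe sets was represented by the one with the highest mean over the 21 arrays. The rule gave 156 of the 12393 genes on the array, drawn from 231 probe sets, and all 156 matched a mouse RefSeq gene by ID under the same symbol. Cells received 10 nm particles at 5, 20 or 50 µg/ml (low, mid and high below) or 500 nm particles at 250, 500 or 1000 µg/ml, in medium without serum. Together with untreated cells this made 7 groups of 3 arrays. The labels do not say whether untreated cells were also moved to medium without serum, so that a comparison with untreated cells may include a difference of medium. All 6 treated groups had the same medium, and comparisons among them hold no such difference. Nor do they say that the 3 arrays of a group came from separate cultures, and p-values here speak only of how far these arrays lie apart, which may be a technical spread.

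Zinc finger proteins of this kind carry rows of fingers, each of which holds a zinc ion and reads a few bases of DNA. Many of them also carry a KRAB box, which recruits the corepressor Trim28 and, through it, the histone methyltransferase Setdb1 to silence the bound DNA, above all retrotransposons. Such genes lie in clusters of tandem duplicates and are numerous in the mouse. The symbol is a name and not a class, so the set also holds proteins with other roles, among them Zfp622, a factor in the assembly of the large ribosomal subunit, and Zfp703 and Zfp503, corepressors of the NET family.

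Values are log2 signals of an Affymetrix array, on which dim probe sets lie close to background and their changes are compressed. The 15 measured macrophage markers had a median of 10.4, against 4.78, 3.99, 3.76 and 4.23 for markers of T cells, B cells, epithelial cells and fibroblasts (5, 4, 4 and 5 measured genes). The macrophage markers ran from 6.02 for Itgam to 13.3 for Csf1r. T cell markers ran from 3.26 to 6.40 for Cd3e, so that these ranges overlap. Zfp genes were dim: their mean signals had a median of 5.92, against 6.66 over all genes, and ran from 2.50 for Zfp820 to 11.39 for Zfp622. Of the 156, 81 had a mean under 6. The design of the probes matters in a family of duplicates: 133 members were read by a probe set of the plain type, while 10, 7 and 6 had the suffixes _a_at, _x_at and _s_at, which mark probes that can read several transcripts or genes. Correlations between arrays ran from 0.969 to 0.998, and the array of replicate 3 had the smallest spread of signals in each of the 7 groups.

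At the higher doses of both particles Zfp genes were lower more often than genes of the array as a whole. With 10 nm particles at the high dose 48 of the 156 (30.8%) were lower and 5 were higher than in untreated cells, where 12.6% of all genes were called lower and 7.58% higher, 20.2% in all (limma, adjusted p under 0.05 over all genes). The 500 nm high dose gave 42 lower (26.9%) and 3 higher, beside 10.0% and 5.31% of all genes (15.3% in all). The members' median log2 change was -0.17 at 10 nm high and -0.13 at 500 nm high, beside 0.036 and 0.073 over all genes. The 2 comparisons share the untreated arrays. Where each array was left out in turn, the calls of 31 of the 48 and 24 of the 42 lower genes, and of 3 of the 5 and 1 of the 3 higher genes, held in every case. Centring each array on its median moved the median of all genes at 10 nm high to 0.14 and that of the members to -0.066 (-0.033 at 500 nm high), and gave 40 lower and 10 higher members, and 32 lower and 8 higher at 500 nm high (10 higher, 32 lower with rescaling as well). Of all genes, centring called 8.88% lower at 10 nm high and 7.22% at 500 nm high, and rescaling 6.19% and 5.30%. The median of all genes at 500 nm high was 0.17 after centring. The share of all genes called higher under these scalings is not given here, so the members' higher counts have nothing to be read beside. In bulk RNA of a cell line, how a change was spread over the cells cannot be told.

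Across the doses the counts grew with the dose of each particle. At 10 nm low 1 member was lower and 0 were higher, where 0.161% of all genes were lower and 0.605% higher (0.767% in all). An unadjusted limma p under 0.05 was found there for 22 members, but all genes were not counted at that threshold. At 10 nm mid 36 were lower and 4 higher, beside 7.39% and 3.22% of all genes (10.6% in all). For 500 nm particles the low dose had 1 lower and 1 higher member, beside 0.0807% and 0.347% of all genes (0.428% in all). At 500 nm mid there were 9 lower and 1 higher, beside 1.51% and 1.26% (2.77% in all), and the 10 calls became 5 without replicate 1 and 6 without replicate 3 of that dose. Changes of at least 2-fold among the called genes were found in 6 lower and 1 higher member at 10 nm mid, beside 85 lower and 125 higher among all 12393 genes. At 10 nm high they were found in 9 and 2 members, beside 142 and 139 of all genes. At 500 nm mid 1 lower member changed that much, beside 8 lower and 52 higher of all genes, and at 500 nm high 8 lower and 1 higher did, beside 135 and 117.

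**Figure D1:**
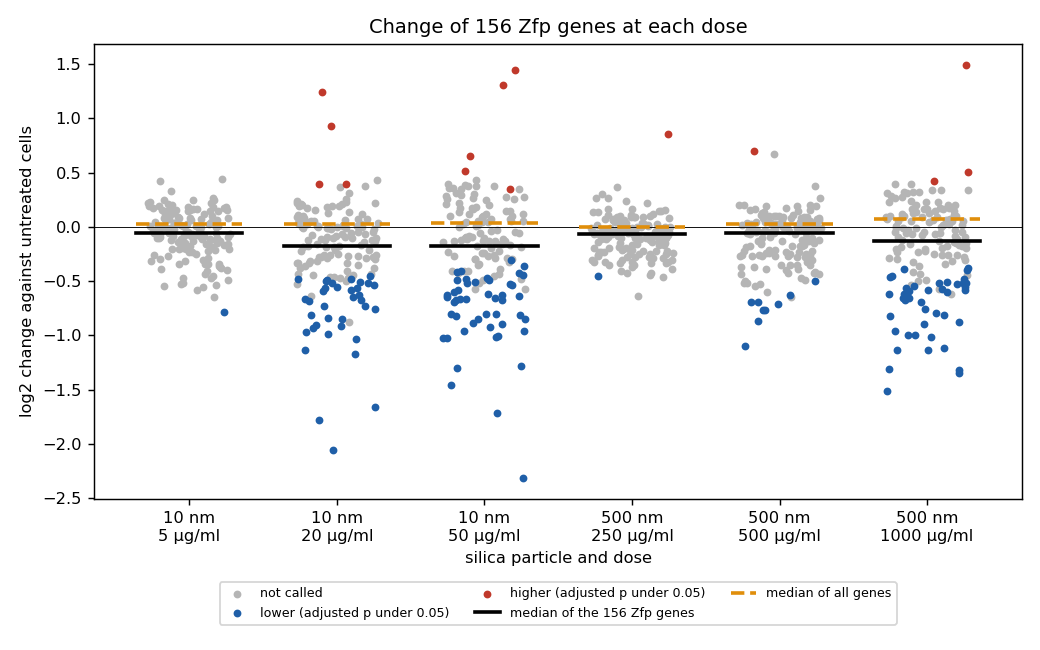
Log2 change of each of the 156 Zfp genes against untreated cells (y axis) at the 6 doses (x axis), with 1 point per gene, the median of the members as a solid line and that of all genes as a dashed line. The members' median lies below that of all genes at each dose, and the lower calls reach 48 at the 10 nm high dose and 42 at the 500 nm high dose.

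The share of lower calls was above that of all genes among both dim and bright members, a description without a test. Among the 81 members with a mean log2 signal under 6, 22 (27.2%) were lower at 10 nm high and 19 (23.5%) at 500 nm high, beside 2.97% and 2.39% of all genes that dim. Of the 75 brighter members, 26 (34.7%) and 23 (30.7%) were lower, beside 20.3% and 16.0% of genes of that brightness. All genes under 6 had a median log2 change of 0.20 at 10 nm high and 0.17 at 500 nm high, while dim Zfp genes had -0.11 and -0.043. The brighter Zfp genes had -0.26 and -0.23, beside -0.15 and -0.059.

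Zfp958, Zfp61 and Zfp53, which the choice of the gene set names as falling, had the 3 largest falls at the 10 nm mid and high doses. Zfp958, on a single probe set, had log2 signals of 6.16, 5.83 and 5.81 at 10 nm high and 6.96, 6.93 and 6.91 at 500 nm high, against 8.05, 8.15 and 8.54 in untreated cells. The 3 groups do not overlap. The change was -2.31 ± 0.16 (log2, SE, n = 3 arrays a group), or 4.97-fold lower, at 10 nm high (limma adjusted p = 4.65e-09) and -1.31 ± 0.16, or 2.49-fold lower, at 500 nm high (adjusted p = 8.79e-06). At the mid doses it was -2.06 ± 0.16 with 10 nm and -0.76 ± 0.16 with 500 nm particles. At the low doses the changes of -0.53 and -0.35 did not pass the test (adjusted p = 0.222 and 0.813).

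Zfp61, a dimmer gene that encodes a KRAB zinc finger protein, had signals of 4.53, 4.14 and 3.99 at 10 nm high and 4.73, 4.74 and 4.42 at 500 nm high, against 5.86, 6.24 and 5.71 in untreated cells. All treated arrays lay below all untreated ones. It fell by 1.71 ± 0.16 at 10 nm high, or 3.28-fold, and by 1.31 ± 0.16 at 500 nm high, or 2.47-fold. At 10 nm mid it fell by 1.78 ± 0.16, so that the 10 nm mid and high doses were close to each other. Zfp53, another KRAB zinc finger gene, had 5.40, 5.15 and 5.05 at 10 nm high and 5.53, 5.20 and 4.70 at 500 nm high, against 6.50, 6.66 and 6.81 in untreated cells. It fell by 1.46 ± 0.17 at 10 nm high and by 1.51 ± 0.17 at 500 nm high, 2.75-fold and 2.86-fold, and by 1.66 ± 0.17 at 10 nm mid.

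Zfp53 was also the 1 member called at the 10 nm low dose, where it fell by 0.78 (adjusted p = 0.0377). That call ended without any of untreated replicates 1, 2 and 3 or 10 nm low replicates 1 and 3 (adjusted p = 0.0607, 0.120, 0.165, 0.201 and 0.243), with quantile normalization (0.129), with rescaled arrays (0.0802) and in a fit of the compared groups alone (0.212). The 500 nm low dose had -0.64 for this gene (adjusted p = 0.195). At 500 nm mid Zfp53 fell by 1.10 ± 0.17, and Zfp61 and Zfp958 each by 0.76 ± 0.16. At that dose the call of Zfp61 ended without untreated replicate 2 (adjusted p = 0.0638) or 500 nm mid replicate 1 (0.0761), with quantile normalization (0.0504) and with the compared groups alone (0.126). That of Zfp958 ended without untreated replicate 3 (0.0669) or 500 nm mid replicate 1 (0.0514) and with the compared groups alone (0.0673).

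**Figure D2:**
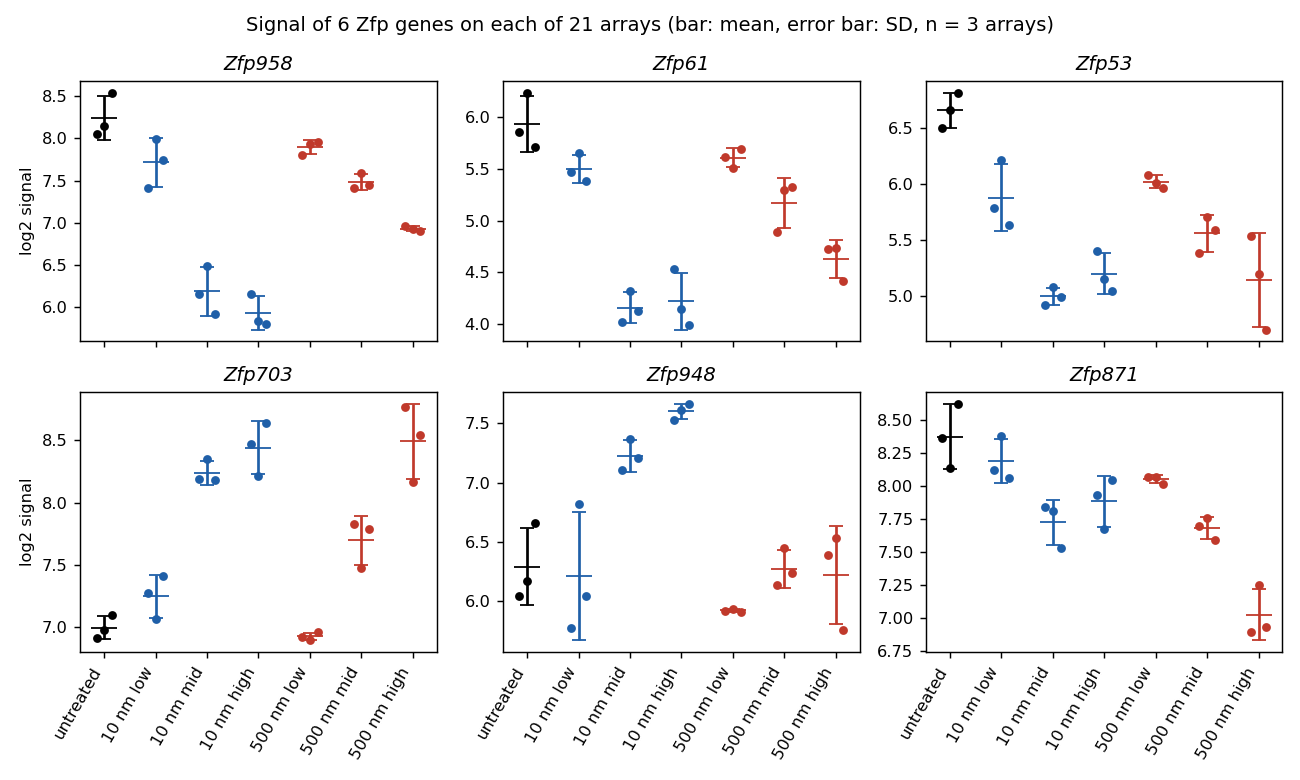
Log2 signal (y axis) of Zfp958, Zfp61, Zfp53, Zfp703, Zfp948 and Zfp871 on each of the 21 arrays, by group (x axis), with the mean and SD of 3 arrays. Zfp958, Zfp61 and Zfp53 lie lowest at the 10 nm mid and high doses and the 500 nm high dose, Zfp703 is high at the high doses of both particles, Zfp948 at the 10 nm mid and high doses, and Zfp871 is lowest at the 500 nm high dose.

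The 250 bases before the start of Zfp958, Zfp61 and Zfp53 are shown because these genes had the largest falls at the 10 nm mid and high doses, and those of Zfp948 because it lies near Zfp53 on the same chromosome and moved the other way with 10 nm particles. They come from RefSeq on GRCm38.p6, where 126 of the 156 members have an entry, and read 5′ to 3′ on the strand of the gene. Capitals mark matches, on either strand, to the ETS-type letters CCGGAAG, the CCAAT box or the Sp1-type letters GGGCGG. A match on the other strand reads as ATTGG for the CCAAT box and as CTTCCGG for the ETS-type letters.
Zfp958 (chr8:4612920-4613169, plus strand): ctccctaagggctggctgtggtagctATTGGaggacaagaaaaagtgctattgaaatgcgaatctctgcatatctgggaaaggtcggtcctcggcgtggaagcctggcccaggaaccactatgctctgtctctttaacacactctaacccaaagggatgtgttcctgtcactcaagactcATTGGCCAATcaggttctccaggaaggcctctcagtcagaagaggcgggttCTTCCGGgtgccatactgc
Zfp61 (chr7:24299550-24299799, minus strand): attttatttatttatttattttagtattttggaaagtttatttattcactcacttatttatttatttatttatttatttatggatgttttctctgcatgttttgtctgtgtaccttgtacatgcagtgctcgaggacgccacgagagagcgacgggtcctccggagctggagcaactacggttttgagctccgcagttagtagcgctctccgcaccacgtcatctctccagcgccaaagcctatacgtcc
Zfp53 (chr17:21488738-21488987, plus strand): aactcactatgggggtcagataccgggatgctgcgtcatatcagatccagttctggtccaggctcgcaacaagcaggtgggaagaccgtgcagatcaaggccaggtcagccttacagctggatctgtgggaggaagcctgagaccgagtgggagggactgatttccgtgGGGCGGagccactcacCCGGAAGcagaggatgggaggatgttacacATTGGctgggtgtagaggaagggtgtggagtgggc
Zfp948 (chr17:21566728-21566977, plus strand): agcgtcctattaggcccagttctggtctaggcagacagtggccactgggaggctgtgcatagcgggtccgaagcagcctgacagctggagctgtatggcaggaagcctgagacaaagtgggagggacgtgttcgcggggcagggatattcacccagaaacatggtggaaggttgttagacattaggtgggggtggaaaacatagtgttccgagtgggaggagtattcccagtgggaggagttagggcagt
Windows of Zfp958 and Zfp53 hold CCGGAAG and CCAAT, and the window of Zfp53 also holds GGGCGG, while none of the 7 motifs searched is in those of Zfp61 and Zfp948.

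Aligned over these windows, Zfp53 and Zfp948 share 58.8% of alignment columns, with gap columns counted in the total. Zfp53 and its neighbour Zfp54 share 61.1%, while Zfp53 shares 48.0% with Zfp61 and 47.2% with Zfp958. Gaps stretched the alignments unequally, from 281 columns for Zfp53 and Zfp61 to 334 for Zfp53 and Zfp52, and more columns lower the share. The shares therefore do not rank the likeness of the windows, by nearness or otherwise. Zfp53 and the nearby Zfp52 share 40.4%, and Zfp948 shares 46.1% with Zfp54 and 49.5% with Zfp52. Zfp52 and Zfp54 share 52.1%. For Zfp61 and Zfp958, which lie on different chromosomes, it is 49.8%. Over all members with a window CCGGAAG was present in 18.3%, beside 11.6% of 9882 array genes and 7.05% of all 27025 promoters. It was in 17.5% of the 40 members lower at 10 nm high and in 18.6% of the other 86. CCAAT was in 45.2% of members, beside 35.8% of array genes and 34.5% of all promoters, and in 57.5% of the lower members and 39.5% of the others. GGGCGG was in 46.8% of members, beside 53.2% of array genes and 32.9% of all, and in 50% of the lower members and 45.3% of the others. TGANTCA was in 4.76% of members and 5.52% of array genes (6.87% of all promoters). Only 6 member windows held it, 12.5% of the lower members (5 windows) and 1.16% of the others (1 window). CACGTG was in 7.14% of members, beside 7.74% and 6.05%, and in 10% of the lower members and 5.81% of the others. The core motif of NRF1 was in 3.17%, beside 1.28% and 0.781%, with 3 windows among the lower members and 1 among the others. TGACGTCA was in 0 member windows, beside 2.32% and 1.62%. Median GC content was 55.4% for members and 58.4% for array genes, and a match of these letters is a description of the window, not a binding site.

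The other large falls at the 10 nm high dose ran from -1.30 for Zfp930 to -0.92 for Zfp82 on the log2 scale, and their calls there held whichever array was left out. Zfp472 had signals of 6.99, 6.81 and 6.52 at 10 nm high, against 7.80, 8.06 and 8.30 in untreated cells, and fell by 1.28 ± 0.15. Zfp930 had 6.56, 6.17 and 5.36 at 10 nm high, against 7.67, 7.51 and 6.81 in untreated cells, a change of -1.30 ± 0.30. Its arrays spread over more than 1 log2 unit in treated cells, although the groups do not overlap. Zfp362 fell by 1.03 ± 0.18, Zfp810 by 1.02 ± 0.17, Zfp120 by 0.96 ± 0.14 and Zfp82 by 0.92 ± 0.16. Zfp101 fell by 0.96 ± 0.15, but its dimmer probe set changed by 0.27, which did not pass the test. Zfp943 changed by -1.02 ± 0.25 on its brighter probe set and by 0.38 on its dimmer one, and with the mean of both its change of -0.32 was not called (adjusted p = 0.290). Zfp39 changed by -1.002 ± 0.20, with arrays at 2.78, 2.83 and 2.71, against 3.57, 3.27 and 4.48 in untreated cells. All of these signals of Zfp39 lie near the lower end of the array, and untreated replicate 3 stood apart from the other two. The calls of Zfp930, Zfp943 and Zfp39 ended in a fit of the compared groups alone (adjusted p = 0.0704, 0.121 and 0.0889).

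At the 500 nm high dose the order was different. Zfp871 had 6.90, 7.25 and 6.93 at 500 nm high, against 8.37, 8.14 and 8.63 in untreated cells, and fell by 1.35 ± 0.14, or 2.55-fold (adjusted p = 1.06e-06). At 10 nm high its arrays read 7.93, 7.68 and 8.05, above all those of 500 nm high and below all untreated ones. That smaller change of -0.49 ± 0.14 lost its call without 10 nm high replicate 2 (adjusted p = 0.0859) or untreated replicate 3 (0.0732). The changes were -1.13 ± 0.24 for Zfp942, -1.13 ± 0.18 for Zfp362, -1.12 ± 0.14 for Zfp386, -1.01 ± 0.14 for Zfp654, -0.997 ± 0.15 for Zfp101 and -0.996 ± 0.21 for Zfp52. Zfp386 had 5.44, 5.39 and 5.07 at 500 nm high, against 6.42, 6.37 and 6.48 in untreated cells. Zfp296, a partner of Klf4 in pluripotent cells, had 6.30, 6.28 and 6.13 at 500 nm high, against 7.17, 7.25 and 7.18 in untreated cells, and fell by 0.96 ± 0.10. These 2 genes were well separated from the control. Calls of Zfp942 and Zfp52 ended in a fit of the compared groups alone (adjusted p = 0.0739 and 0.0654). Zfp943 changed by -0.89 ± 0.25 (adjusted p = 0.0206), a call that ended without untreated replicate 3 (0.117), 500 nm high replicate 1 (0.0590) or 500 nm high replicate 3 (0.0574), with only the compared groups (0.118) and with the mean of its probe sets (0.600), since the dimmer one changed by 0.53.

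At the mid doses the largest falls after Zfp958, Zfp61 and Zfp53 with 10 nm particles were those of Zfp472 (1.17 ± 0.15) and Zfp810 (1.14 ± 0.17), whose calls there held with each array left out. With 500 nm particles Zfp329 changed by -0.86 ± 0.20 and Zfp362 by -0.71 ± 0.18. Both calls were marginal and ended when any of several single arrays was left out. That of Zfp329 ended without untreated replicate 3 (adjusted p = 0.104) or without 500 nm mid replicate 2 (0.0946) or 3 (0.0814), and with the compared groups alone (0.229). That of Zfp362 ended without any 1 of the 3 untreated replicates (0.0804, 0.136 and 0.0844) or without 500 nm mid replicate 2 (0.0998) or 3 (0.252), and with quantile normalization (0.0628), rescaled arrays (0.0781) or the compared groups alone (0.0908). At 500 nm low Zfp296 changed by -0.45 (adjusted p = 0.0499), with arrays at 6.86, 6.62 and 6.76, against 7.17, 7.25 and 7.18 in untreated cells. That call ended whichever array of the 2 groups was left out (adjusted p from 0.0622 without 500 nm low replicate 1 to 0.377 without its replicate 2), with quantile normalization (0.0696) or rescaled arrays (0.0770), and with the compared groups alone (0.418).

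**Figure D3:**
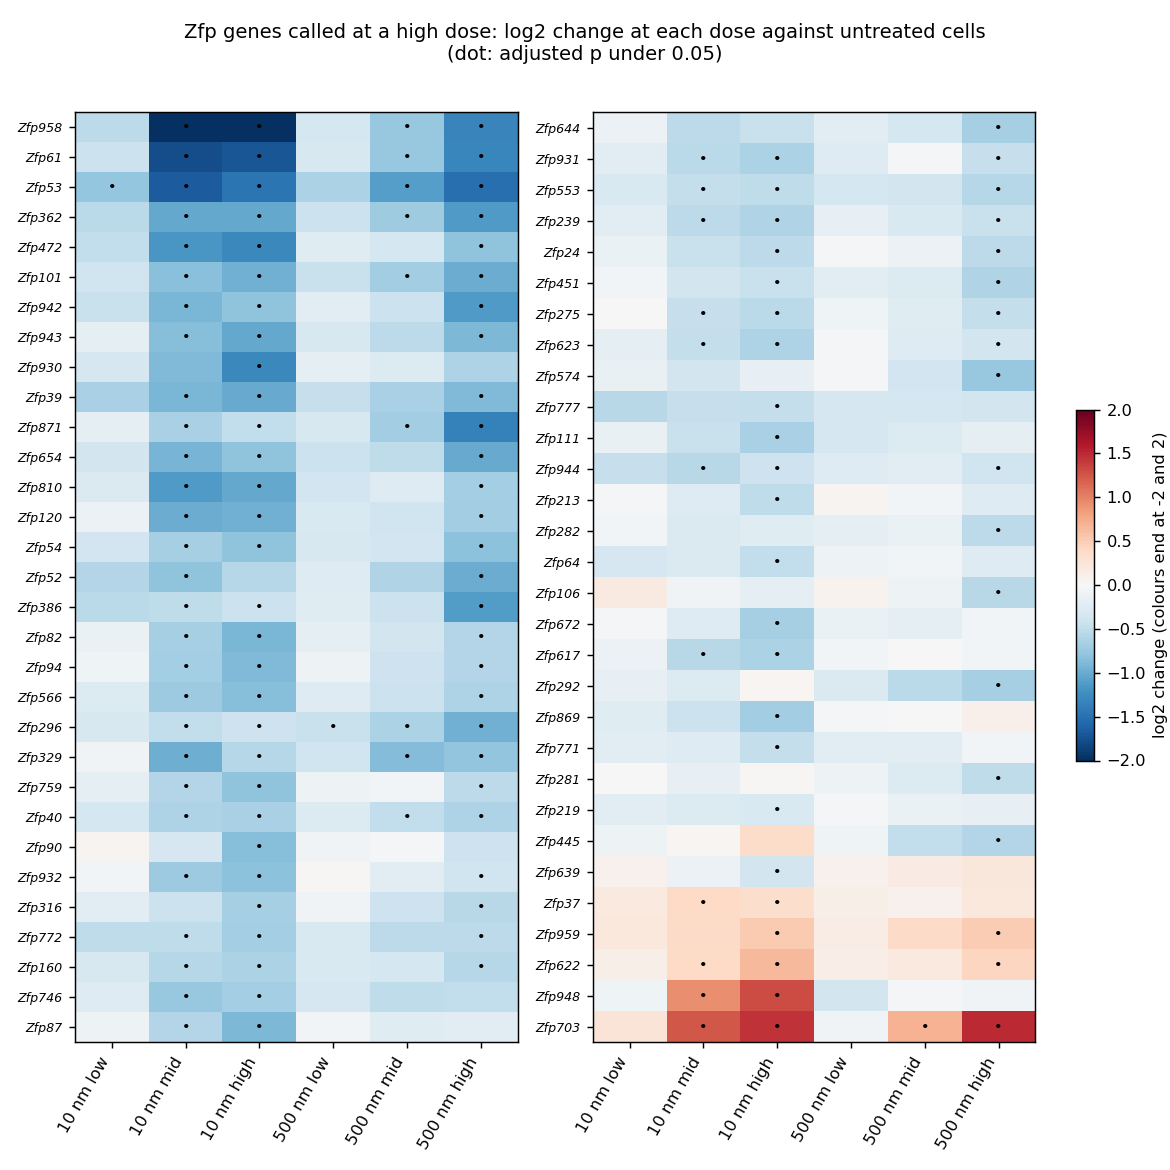
Log2 change against untreated cells (colour) at the 6 doses (columns) of the 61 Zfp genes called at either high dose (rows, sorted by their mean change at the high doses); a dot marks an adjusted p under 0.05. Lower values fill most rows, from Zfp958 (-2.31 at 10 nm high) down, and the few higher genes end with Zfp703 (1.45 at 10 nm high and 1.496 at 500 nm high).

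Few Zfp genes rose. Zfp703, the NET family corepressor, had 8.47, 8.22 and 8.64 at 10 nm high and 8.77, 8.17 and 8.54 at 500 nm high, against 6.91, 6.98 and 7.10 in untreated cells. Every array of the high doses lay more than 1 log2 unit above every untreated array. It rose by 1.45 ± 0.14, or 2.72-fold, at 10 nm high and by 1.496 ± 0.14, or 2.82-fold, at 500 nm high (adjusted p = 6.75e-07 and 4.72e-07). At 10 nm mid it rose by 1.24 ± 0.14. The change of 0.70 ± 0.14 at 500 nm mid lost its call without 500 nm mid replicate 1 (adjusted p = 0.0564) or 3 (0.0511) or with the compared groups alone (0.0601). Zfp503, its close relative, had 7.21, 7.15 and 7.32 at 500 nm low, against 6.04, 6.16 and 6.91 in untreated cells, a change of 0.86 ± 0.18 (adjusted p = 0.0353). That call ended without untreated replicate 1 (0.229) or 2 (0.172) or any 1 of the 3 arrays of that dose (0.129, 0.112 and 0.190), and with the compared groups alone (0.450). At the high doses Zfp503 changed by less than its error with 10 nm particles (0.004 ± 0.18) and by 0.09 ± 0.18 with 500 nm particles.

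Zfp948 was higher with 10 nm particles. Its arrays read 7.53, 7.61 and 7.66 at 10 nm high and 6.39, 6.53 and 5.75 at 500 nm high, against 6.04, 6.17 and 6.66 in untreated cells. The 10 nm high arrays lay above all others, while the 500 nm high and untreated arrays overlapped. It rose by 1.31 ± 0.22, or 2.48-fold, at 10 nm high (adjusted p = 0.000302) and by 0.93 ± 0.22 at 10 nm mid, and changed by -0.07 ± 0.22 at 500 nm high (adjusted p = 0.856).

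Zfp622, the ribosome assembly factor and the brightest member, had 11.77, 11.66 and 11.86 at 10 nm high and 11.56, 11.43 and 11.61 at 500 nm high, against 11.09, 11.09 and 11.16 in untreated cells. It rose by 0.65 ± 0.11 at 10 nm high (adjusted p = 0.000329). The change of 0.42 ± 0.11 at 500 nm high lost its call without 500 nm high replicate 3 (adjusted p = 0.0561) or in a fit of the compared groups alone (0.0747). At 10 nm mid it changed by 0.40 ± 0.11, and this call ended without untreated replicate 1 (0.0669) or 2 (0.0657) or 10 nm mid replicate 2 (0.0536) or 3 (0.103) and with the compared groups alone (0.0852). With rescaled arrays the change was 0.70 and was not called (0.0594). Zfp959 changed by 0.52 ± 0.13 at 10 nm high and 0.51 ± 0.13 at 500 nm high. These calls ended without untreated replicate 1 (0.0624 and 0.0729) or 2 (0.0552 and 0.0681), and without replicate 3 of the treated group (0.0510 and 0.0725) and with the compared groups alone (0.140 and 0.140). Zfp37, known from male germ cells, changed by 0.35 ± 0.11 at 10 nm high and 0.40 ± 0.11 at 10 nm mid from signals between 3 and 4. Its call at the high dose ended without untreated replicate 1 (0.106) or 2 (0.0543) or 10 nm high replicate 3 (0.144) and with quantile normalization (0.185), rescaled arrays (0.334) or the compared groups alone (0.161). The call at the mid dose ended without untreated replicate 1 (0.0836) or 10 nm mid replicate 1 (0.0749) or 3 (0.133) and with rescaled arrays (0.0695) or the compared groups alone (0.156).

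Slopes on log2 dose were also taken over the 3 doses of each particle, without the untreated level. For 10 nm particles 27 members fell and 5 rose with dose, beside 9.05% and 3.13% of all genes (12.2% in all); the 32 calls became 17 without 10 nm low replicate 2. For 500 nm particles 19 fell and 1 rose, beside 5.37% and 2.83% (8.2% in all). Those 20 calls became 10 without 500 nm low replicate 1, 11 without its replicate 3 and 12 without 500 nm high replicate 3. Centring gave 15 falling and 4 rising members, with 3.93% of all genes falling. The share of all genes rising after centring is not given here. Slopes are those of a straight line, per doubling of the dose. Zfp958 fell by 0.56 ± 0.05 with 10 nm and by 0.48 ± 0.08 with 500 nm particles. Zfp61 fell by 0.41 ± 0.05 and 0.49 ± 0.08. For Zfp53 the slopes were -0.22 ± 0.05 and -0.44 ± 0.09, and the first lost its call without 10 nm low replicate 2 (adjusted p = 0.0728). The 10 nm falls were not even over the doses. Against untreated cells Zfp61 changed by -0.43, -1.78 and -1.71 at 10 nm low, mid and high. Zfp53 changed by -0.78, -1.66 and -1.46 there, so that neither gene fell further from mid to high. Zfp958 changed by -0.53, -2.06 and -2.31. Zfp703 rose by 0.37 ± 0.04 and 0.78 ± 0.07 per doubling. Zfp948 rose by 0.42 ± 0.07 with 10 nm particles, while its 500 nm slope of 0.15 ± 0.11 did not pass the test (adjusted p = 0.499). The doses of the particles span different ranges, and the slopes of the particles were not tested against each other.

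The particles were then compared directly. At the high doses, 50 µg/ml of 10 nm and 1000 µg/ml of 500 nm particles, 10 members were lower and 9 higher with 10 nm particles, beside 4.15% and 3.37% of all genes (7.52% in all). Without 500 nm high replicate 1 or 2 the 19 calls became 11 and 12. Zfp958 differed by -0.998 ± 0.16 (adjusted p = 0.000488), as its arrays above show. Zfp948 was higher by 1.38 ± 0.22, or 2.60-fold, and Zfp871 by 0.86 ± 0.14. For these 3 genes and for Zfp445, Zfp639, Zfp672, Zfp869, Zfp87, Zfp292 and Zfp386 the call held with each array left out.

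Zfp869 had 6.32, 6.37 and 6.71 at 10 nm high and 7.46, 7.18 and 7.11 at 500 nm high, against 7.10, 6.94 and 7.42 in untreated cells, a difference between particles of -0.79 ± 0.15. Zfp672 had 6.09, 5.96 and 5.96 at 10 nm high and 6.73, 6.59 and 6.52 at 500 nm high, against 6.68, 6.68 and 6.65 in untreated cells, a difference of -0.61 ± 0.12. Zfp87 differed by -0.67 ± 0.14 and Zfp639 by -0.59 ± 0.09. Zfp292 went the other way, with 7.54, 7.68 and 7.83 at 10 nm high and 7.01, 6.84 and 7.10 at 500 nm high, against 7.33, 7.66 and 7.94 in untreated cells, a difference of 0.70 ± 0.15. Zfp386 differed by 0.70 ± 0.14. In a fit of the compared groups alone the calls of Zfp292, Zfp386, Zfp639, Zfp672, Zfp869 and Zfp87 ended (adjusted p from 0.0577 for Zfp292 to 0.0950 for Zfp87).

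Zfp445, which with Zfp57 maintains genomic imprints, had 8.98, 8.77 and 8.999 at 10 nm high and 8.09, 7.91 and 7.90 at 500 nm high, against 8.21, 8.63 and 8.82 in untreated cells. The difference between particles was 0.95 ± 0.14 on its brighter probe set and -0.12 ± 0.35 on its dimmer one. With the mean of the 2 probe sets the difference of 0.41 was not called (adjusted p = 0.118), and for Zfp386 the mean gave 0.45 (adjusted p = 0.224). Its partner Zfp57 differed by 0.38 ± 0.19, which did not pass the test (adjusted p = 0.270).

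**Figure D4:**
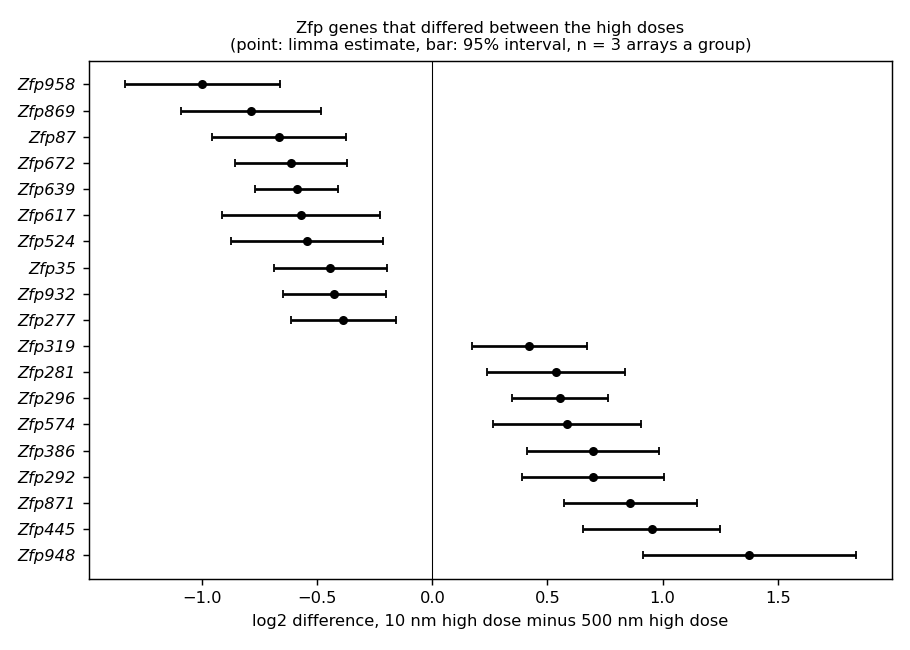
Log2 difference between the 10 nm high dose and the 500 nm high dose (x axis) for the 19 Zfp genes called in that comparison (y axis), with 95% intervals from limma. The differences run from -0.998 for Zfp958 to 1.38 for Zfp948.

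Mass doses of the particles differ widely, so groups of equal dose over diameter, which for spheres of 1 density is proportional to surface area, were set side by side. At 10 nm mid and 500 nm high, equal by this measure, 3 members were lower and 5 higher with 10 nm particles, beside 1.04% and 1.81% of all genes (2.85% in all), and with single arrays left out the 8 calls became 3 to 5. The difference for Zfp871, 0.70 ± 0.14 (adjusted p = 0.00637), was the 1 call that held with each array left out. Zfp948 was higher by 1.001 ± 0.22, a call that ended without 10 nm mid replicate 2 (adjusted p = 0.0769) or 500 nm high replicate 3 (0.0954). Zfp958 was lower by 0.74 ± 0.16, a call that ended without 10 nm mid replicate 1 (0.0550) or 3 (0.0872) or 500 nm high replicate 1 (0.0548). All 3 ended in a fit of the compared groups alone (0.0728, 0.0727 and 0.0750). Zfp61 and Zfp53 did not pass the test, with differences of -0.47 ± 0.16 and -0.15 ± 0.17. At 10 nm low and 500 nm low, also equal by this measure, 0 members were called by limma, beside 0.00807% of all genes lower and 0.0807% higher with 10 nm particles (0.0888% in all). An unadjusted p under 0.05 was found for 8 members, again without a count of all genes at that threshold.

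Zfp genes lie in clusters, and members next to each other among protein-coding genes (RefSeq, GRCm38.p6) made 21 groups with 56 members. Of these 56, 20 (35.7%) were lower at 10 nm high and 18 (32.1%) at 500 nm high. Of the other 100 members 28 (28%) and 24 (24%) were lower. Neighbours did not all move alike. In the run of Zfp54, Zfp51, Zfp53, Zfp52 and Zfp948 on chromosome 17, whose start of Zfp53 and of Zfp948 is printed above, Zfp54 changed by -0.80 ± 0.16 at 10 nm high and -0.82 ± 0.16 at 500 nm high, both called. Zfp51 had -0.49 ± 0.27 and -0.58 ± 0.27, neither called. Zfp52 had -0.57 ± 0.21 at 10 nm high, which was not called, and changed by -0.996 ± 0.21 at 500 nm high, which was called. Zfp948, at the end of the run, rose with 10 nm particles alone among these 5, as given above.

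In the run of Zfp111, Zfp109, Zfp108, Zfp93, Zfp61 and Zfp94, the deep fall of Zfp61 stood beside genes that changed by little. Zfp109, Zfp108 and Zfp93 had -0.04, -0.03 and -0.12 at 10 nm high and 0.17, 0.06 and 0.13 at 500 nm high, none of them called. Zfp94, on the other side of Zfp61, fell by 0.89 ± 0.16 at 10 nm high. Its change of -0.58 ± 0.16 at 500 nm high lost its call without untreated replicate 3 (adjusted p = 0.0995) or 500 nm high replicate 1 (0.0784). Zfp111 fell by 0.64 ± 0.14 at 10 nm high and had -0.20 ± 0.14 at 500 nm high, which was not called. Zfp82 and Zfp566 are next to each other and changed by -0.92 and -0.85 at 10 nm high and by -0.58 and -0.62 at 500 nm high, while Zfp568 and Zfp14 beside them had -0.17 and 0.17, and -0.32 and 0.18, with none of these 4 values called. The 500 nm high call of Zfp82 ended without untreated replicate 3 (adjusted p = 0.0677) or 500 nm high replicate 2 (0.0826).

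**Figure D5:**
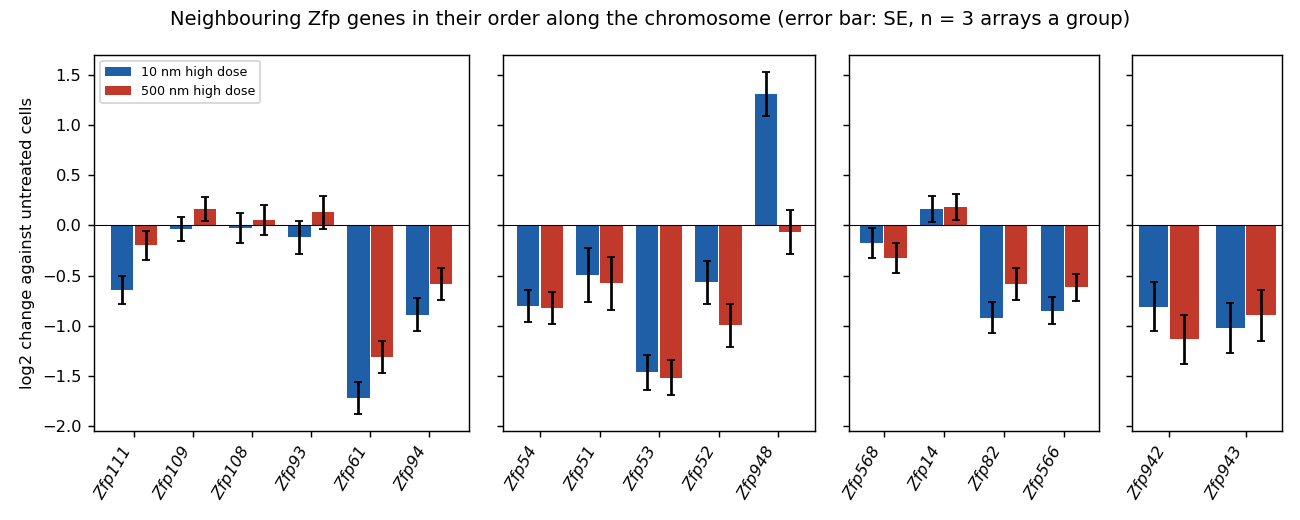
Log2 change against untreated cells (y axis, bars with SE, n = 3 arrays a group) at the 10 nm high dose and the 500 nm high dose for 4 runs of neighbouring Zfp genes (x axis). Zfp61 fell by 1.71 and 1.31 beside Zfp93 at -0.12 and 0.13, and Zfp948 rose by 1.31 with 10 nm particles in a run where Zfp53 fell by 1.46.

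Of the 156 members, 95 were called at neither high dose. Some members with described roles are named here for those roles and not by the rule for named genes. Zfp568, which silences a placental transcript of Igf2, had -0.17 ± 0.15 at 10 nm high and -0.32 ± 0.15 at 500 nm high. Zfp57 had 0.38 ± 0.19 and -0.01 ± 0.19. Zfp42, also called Rex1 and a marker of embryonic stem cells, had 0.17 and 0.23, and Zfp423, a regulator of fat and brain development, had 0.17 and 0.40. None of these 4 genes passed the test. Zfp281, a regulator of pluripotent cells, is not one of the 95: it had 0.03 ± 0.14 at 10 nm high and -0.51 ± 0.14 at 500 nm high (adjusted p = 0.0199), a call that ended without untreated replicate 3 (0.107) or 500 nm high replicate 1 (0.0580) or 2 (0.0802).

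The partners through which KRAB proteins act were counted from a list of their own. Of 22 measured genes of the KRAB corepressor and heterochromatin machinery, out of 31 listed, 1 was higher and 1 lower at 10 nm high (median log2 change -0.16), and 0 were higher and 3 lower at 500 nm high (median -0.21). Among all genes 12.6% were lower and 7.58% higher at 10 nm high, and 10.0% and 5.31% at 500 nm high. Trim28 had 0.05 ± 0.16 at 10 nm high and -0.005 ± 0.16 at 500 nm high, and Setdb1 -0.32 ± 0.21 and -0.47 ± 0.21, none of them called. Hdac2, a histone deacetylase, fell by 0.57 ± 0.11 at 10 nm high, and Cbx5, the heterochromatin protein HP1 alpha, by 0.66 ± 0.11 at 500 nm high. Suv39h2, a histone methyltransferase, changed by -0.66 ± 0.21 at 500 nm high, a call that ended without untreated replicate 1 (adjusted p = 0.111) or 2 (0.187) or 500 nm high replicate 1 (0.0646) or 3 (0.237). Atrx, a chromatin remodeller, changed by 0.89 ± 0.27 at 10 nm high, a call that ended without untreated replicate 1 (adjusted p = 0.130) or 10 nm high replicate 1 (0.0638) or 3 (0.0706).

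Other zinc finger families are given as counts, to be read beside the same shares of all genes (12.6% lower and 7.58% higher at 10 nm high, 10.0% and 5.31% at 500 nm high). Genes named Zbtb encode proteins with a BTB domain in place of KRAB. Of 24 entries with such a symbol, which include Zbtb11os1, a transcript from the strand opposite Zbtb11 and 1 of the lower calls at 10 nm high, 9 were lower and 2 higher at 10 nm high (median -0.12), and 7 lower and 1 higher at 500 nm high (median -0.11). Zbtb18, a repressor known from neurons, changed by -1.35 ± 0.11 at 10 nm high and by -1.49 ± 0.11 at 500 nm high, both called. Zbtb1, needed for lymphocyte development, changed by -0.86 ± 0.13 and -1.36 ± 0.13, both called. Zbtb21 rose by 1.37 ± 0.11 and 1.66 ± 0.11. Of 11 Zscan and Zkscan genes, whose proteins carry a SCAN domain, 4 were lower and 0 higher at 10 nm high (median -0.33), and 2 lower and 0 higher at 500 nm high (median -0.10). Zscan12 fell by 0.96 ± 0.17 and Zkscan5 by 0.68 ± 0.15 at 10 nm high. At 500 nm high Zscan12 changed by -0.58 ± 0.17, a call that ended without untreated replicate 2 (adjusted p = 0.0751) or 3 (0.0791) or 500 nm high replicate 3 (0.160). Zscan22 had -0.35 ± 0.11 at 10 nm high and -0.37 ± 0.11 at 500 nm high, calls that ended without untreated replicate 1 (0.0898 and 0.0759) or 2 (0.0875 and 0.0766), without 10 nm high replicate 1 (0.0994) or 2 (0.143), and without 500 nm high replicate 1 (0.0998) or 3 (0.0817).

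Other probe sets of the called members gave a mixed check. At 10 nm high 14 called members had further probe sets, of which 2 had another one called the same way and 6 had one with the opposite sign (Zfp101, Zfp316, Zfp451, Zfp64, Zfp943 and Zfp944). At 500 nm high the numbers were 18, 7 and 5, the last being Zfp106, Zfp24, Zfp451, Zfp644 and Zfp943. Zfp958, Zfp61, Zfp53, Zfp703, Zfp948 and Zfp871 have a single probe set each, so this check does not reach them.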

How the data were processed

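Affymetrix mouse arrays measured RNA of 21 samples, copied by an oligo-dT primed reaction per the labels' protocols. The deposited log10 values, 1 per probe set, come from RMA, which the submitters' processing notes name without a version. RMA removes shifts shared by most genes and compresses dim changes. The base was read from the values: the top value of 4.34 means 22019 units in base 10 and 20.3 in base 2. A factor of 3.32 turned them into log2 values, and fold changes rest on that reading. For arrays it is the number per group that limits the precision.

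Of 22690 probe sets, 20380 with 1 symbol gave 12393 genes. limma 3.58.1 (R 4.3.3, lmFit and eBayes) fitted all genes and all 7 groups together, with 14 residual and 4.80 prior degrees of freedom. Tests were two-sided, adjusted by Benjamini-Hochberg over all genes, with a call at an adjusted p under 0.05. Errors are standard errors. In data simulated for the 10 nm high comparison on 12393 genes, 45 of 50 genes were recovered at each of -1 and 1, 15 of 50 at -0.5 and 24 of 50 at 0.5, with 7 false calls. Only these genes were changed, with noise independent between arrays, while 20.2% of genes were called in the data. These rates therefore need not hold for the data.

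The members, gene lists and rules were chosen with earlier results of these data known. The rule named the 12 largest called falls and 8 rises at each high dose, 5 and 5 at each mid dose and between particles, 3 and 3 at each low dose, and 3 genes of each list. Neighbours and promoter windows come from RefSeq (GRCm38.p6). Pairwise identity used global alignment (Biopython 1.88), as identical bases over all columns with gaps included. A planned split by protein domains was not made, and protein sequences were not used here. Figures were drawn with matplotlib 3.10.9. Alternatives were the replicate block, 3 scalings, array weights, a filter on dim genes, other uses of probe sets, a fit of the compared groups alone and leaving out each array.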

Additional observations from a re-analysis of the deposited data

Results flagged for a closer look

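Of the members called by limma's test of the difference between particles itself, the largest differences are listed here, up to 5 in each direction. There were 19 such members at the high doses, not all of them listed, and 8 at 10 nm mid against 500 nm high. Values are log2 differences, 10 nm minus 500 nm. At the high doses they were -0.998 for Zfp958, -0.79 for Zfp869, -0.67 for Zfp87, -0.61 for Zfp672 and -0.59 for Zfp639, and 1.38 for Zfp948, 0.95 for Zfp445, 0.86 for Zfp871, 0.70 for Zfp292 and 0.70 for Zfp386. At 10 nm mid and 500 nm high they were -0.74 for Zfp958, -0.51 for Zfp35 and -0.35 for Zfp639, and 1.001 for Zfp948, 0.70 for Zfp871, 0.63 for Zfp445, 0.62 for Zfp386 and 0.47 for Zfp296.

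In this second comparison the calls of Zfp35 and Zfp639 ended without any 1 of the 3 arrays of 10 nm mid or without 500 nm high replicate 1 or 2 (adjusted p up to 0.0968 and 0.171). The call of Zfp445 ended without 10 nm mid replicate 2 or 3 or 500 nm high replicate 2 or 3 (up to 0.0851). That of Zfp386 ended without 10 nm mid replicate 1 or 2 or 500 nm high replicate 3 (up to 0.0956), and that of Zfp296 without 10 nm mid replicate 1 or 3 or 500 nm high replicate 3 (up to 0.0672). Zfp948 and Zfp958 lost theirs as given above. All 8 calls of this comparison ended in a fit of the compared groups alone (adjusted p from 0.0520 for Zfp445 to 0.220 for Zfp639). With the mean of probe sets those of Zfp386 (0.207) and Zfp445 (0.409) ended, and with rescaled arrays that of Zfp445 (0.0654).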

How the results depend on the processing

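Numbers of called Zfp genes are given for 10 nm low, mid and high, then 500 nm low, mid and high. Array weights gave 25, 64, 83, 12, 42 and 75 (65 and 55 for the slopes of 10 nm and 500 nm, 70 for the high doses compared, 40 for 10 nm mid against 500 nm high, 1 for the low doses compared), against 1, 40, 53, 2, 10 and 45 (32, 20, 19, 8 and 0). The whole array moved too: array weights called 3.66%, 14.5%, 24.2%, 1.21%, 8.03% and 17.8% of all genes lower, beside 13.5%, 35.9%, 43.6%, 5.77%, 23.1% and 37.8% of members. For the slopes they called 20.8% and 13.2% of all genes falling, beside 35.9% and 28.2% of members. Between particles, in the order given, 21.6%, 10.4% and 0.186% of all genes were lower, beside 30.1%, 17.9% and 0.641% of members. A fit of the compared groups alone gave 0, 23, 25, 0, 2 and 16 (4 for the high doses and 0 for 10 nm mid against 500 nm high). It called 0%, 3.36%, 3.75%, 0%, 0.339% and 4.23% of all genes lower, beside 0%, 13.5%, 14.1%, 0%, 1.28% and 9.62% of members. For the high doses and for 10 nm mid against 500 nm high, 0.549% and 0.282% of all genes were lower, beside 0.641% and 0% of members. Leaving out genes under a mean log2 of 6 gave 0 at 10 nm low, 25 at 10 nm mid, 31 at 10 nm high and 29 at 500 nm high, with 75 members tested. Of all genes kept, 0.477%, 14.5%, 23.0% and 18.7% were lower in these comparisons, beside 0%, 29.3%, 36% and 30.7% of members. Quantile normalization and rescaling each gave 0 at 10 nm low and 1 at 500 nm low. Testing every probe set gave 0 and 1 at these doses, and centring gave 21 for the 10 nm slope, with 4.92% of all genes falling.

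With single arrays left out the ranges were 0 to 2, 31 to 38, 43 to 53, 0 to 1, 5 to 11 and 33 to 40, with 17 to 30 and 10 to 21 for the slopes, 11 to 19 for the high doses, 3 to 5 for 10 nm mid against 500 nm high and 0 to 0 for the low doses. None of 73 values of named genes changed sign under the settings it was computed for (48 under the filter on dim genes; testing every probe set gave counts alone). Calls among them were lost for 34 in a fit of the compared groups alone, 7 with rescaling, 6 with the mean of probe sets, 5 with quantile normalization and 0 with centring.

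Equal replicate numbers alone do not establish a pairing, but same-numbered arrays often deviated alike from their group means. Of 63 pairs of same-numbered arrays 51 had deviations correlated over 0.1 (range -0.24 to 0.76). Pairs with other numbers, from different groups, ranged from -0.72 to 0.65. The main fit had no term for the replicate number. With the replicate block the numbers were 3, 54, 74, 2, 21 and 60, with 48 and 40 for the slopes, 28, 16 and 0 between particles. Against untreated cells the block called 0.549%, 11.9%, 19.3%, 0.242%, 3.48% and 15.1% of all genes lower, beside 1.92%, 31.4%, 39.7%, 0.641%, 11.5% and 32.7% of members. For the slopes 15.5% and 9.23% of all genes fell, beside 25.6% and 21.2% of members. Between particles 10.4%, 2.46% and 0.0242% of all genes were lower with 10 nm, beside 10.3%, 4.49% and 0% of members. Dim signals, single probe sets and 3 arrays a group limit what can be called.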
